A study of Mus musculus with 18 samples.

Results

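Small RNA of VitD3-treated dendritic cells (VitD3-DC) was set against that of untreated control dendritic cells (control-DC). These are 6 of the 18 libraries of a study that also sequenced LPS-treated cells (LPS-DC) and the extracellular vesicles (EV) released by all 3 kinds of culture. The 3 VitD3-DC libraries come from primary bone marrow cells of C57bl/6 mice that were grown to dendritic cells in medium conditioned by a GM-CSF producing cell line and received 10 nM 1α,25-dihydroxyvitaminD3 for 12 days by the labels, or from the second day of culture onward by the study's methods. The 3 control-DC libraries come from cultures with the same GM-CSF medium and no stimulus. Both groups were moved to EV-depleted medium before the cells were collected, and non-adherent and semi-adherent cells were taken, with no sorting step described. The 3 replicates were experiments on different days, and a replicate number was taken to stand for the same day in both groups. The 3 LPS-DC libraries (24 h of LPS) entered the read filter and the estimate of the spread, and their own comparison with control-DC is given beside that of VitD3-DC for the called miRNAs.

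The deposited table gives whole-number read counts for 6017 RNA rows. After repeated mature miRNA names were collapsed, 5879 rows were left, of which 1498 had at least 10 reads over the 9 cellular libraries and were tested. They are 420 miRNAs, 331 snoRNAs, 373 snRNAs, 39 miscRNAs (the class that holds Y-RNA, Vault RNA and 7SL RNA) and 335 tRNA genes. Counted reads per library were 12427662 to 25489022 in VitD3-DC (median 15931165) and 16656534 to 24741522 in control-DC (median 17226400). These sums are over all rows, before repeated names were collapsed. Replicates of a group correlated with Pearson's r of 0.976 to 0.985 on the log2 scale, and 0 of the 6 replicate pairs were identical. The labels put replicate 1 on sequencing run 1 and replicate 3 on run 2 in both groups. Replicate 2 is the exception, since VitD3-DC replicate 2 is labelled run 2 and control-DC replicate 2 run 1, so by these labels treatment and run cannot be told apart within that pair. The description of VitD3-DC replicate 2 carries the flow-cell identifier of the libraries labelled run 1, so its run is uncertain. Results are therefore also given without VitD3-DC replicate 2.

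Marker miRNAs of several cell types were looked up in the 6 libraries. The 11 myeloid marker miRNAs on the list (miR-223, miR-142a, miR-21a, miR-155, miR-146 and miR-511 arms) took 59.2% to 75.4% of miRNA reads in VitD3-DC and 46.2% to 59.2% in control-DC. Most of this was miR-21a-5p, itself among the called miRNAs. The 9 markers other than the miR-21a arms took 10.2%, 6.15% and 12.0% in VitD3-DC, against 18.2%, 14.1% and 14.9% in control-DC. Most of that was miR-146b-5p, with 9.31%, 5.72% and 11.5% in VitD3-DC and 17.2%, 13.1% and 13.7% in control-DC. Of the 11, the 2 arms each of miR-21a and miR-511 were called, all higher, and the median log2 fold change of the list was -0.03. Lymphoid miR-150 had at most 2 reads in any of the 6 libraries. Muscle marker miRNAs, all but 3 of 10 detected, reached 0.397% of miRNA reads in VitD3-DC replicate 3 and 0.882% in control-DC replicate 3, against at most 0.0259% in the other 4 libraries. Stromal markers stayed at or below 0.00713% and epithelial markers at or below 0.0334% in all 6. Of 3 tested stromal markers 2 had an unadjusted p under 0.05, both higher, among them miR-199a-3p with a log2 fold change of 1.74 (edgeR, FDR = 0.0536), and the summed stromal share was 0.000761%, 0.00206% and 0.00377% in VitD3-DC and 0.000249%, 0.000458% and 0.00713% in control-DC. Of 9 tested epithelial markers 3 had such a p, all lower. Over all 420 tested miRNAs, 11.9% were higher and 9.76% lower at that p. Of 4 tested neuronal markers 1 was higher and 1 lower by it. Of 6 tested muscle markers 1 was lower, and the 1 tested liver marker was lower. The 4 erythroid and 1 endothelial markers tested had 0. The part of these cells in the results was not tested. In bulk RNA, fewer cells of a type and less RNA per cell cannot be told apart.

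VitD3 is the active hormone form of vitamin D. It binds the vitamin D receptor, a transcription factor that pairs with the retinoid X receptor on DNA, and in dendritic cells it is known to favor a tolerance-promoting state. A miRNA is cut from a hairpin precursor whose 5p and 3p arms can both give a mature strand, and it guides Argonaute proteins to mRNAs mainly through its seed, bases 2 to 8. miRNAs of neighbouring hairpins are often made from 1 transcript, or from the intron of a protein-coding host gene.

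Of the 420 miRNAs, 15 were higher and 3 were lower in VitD3-DC than in control-DC at a false discovery rate (FDR) below 0.05. A total of 362 of the 420 tested miRNAs, and 15 of these 18, have a mature sequence in RefSeq (GRCm38.p6). The sequences that the results turn on are printed 5′ to 3′ with the seed in capitals. The first group holds some of the 15 miRNAs that were higher in VitD3-DC, and shows that those printed do not share 1 seed.

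miR-708-3p: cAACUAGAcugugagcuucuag
miR-708-5p: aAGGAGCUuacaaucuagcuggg
miR-10a-5p: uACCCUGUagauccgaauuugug
miR-99b-5p: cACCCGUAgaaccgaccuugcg
let-7e-5p: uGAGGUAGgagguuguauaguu
miR-125a-5p: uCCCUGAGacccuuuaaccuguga
miR-27b-3p: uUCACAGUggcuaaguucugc
miR-511-3p: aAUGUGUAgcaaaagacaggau
miR-21a-5p: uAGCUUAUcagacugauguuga

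The second group holds the 3 that were lower.

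miR-182-5p: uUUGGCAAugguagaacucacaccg
miR-138-5p: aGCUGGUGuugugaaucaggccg
miR-184-3p: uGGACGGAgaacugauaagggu

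The third group holds relatives with the same seed as one of the first, shown because their values are set beside it.

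miR-28a-5p: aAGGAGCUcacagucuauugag
miR-10b-5p: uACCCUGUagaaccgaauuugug
let-7a-5p: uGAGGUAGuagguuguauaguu
miR-27a-3p: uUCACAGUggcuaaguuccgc

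Positions are counted from 1 at the 5′ end of the first miRNA named. miR-10a-5p and miR-10b-5p differ by U12A, let-7e-5p and let-7a-5p by G9U, and miR-27b-3p and miR-27a-3p by U19C. None of these 3 differences lies in the seed.

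The 18 called miRNAs are 4.29% of those tested (3.57% higher, 0.714% lower), and all 18 had over 2-fold change and the same direction in all 3 replicate pairs. Without a correction for multiple testing, 91 miRNAs (21.7%) had p under 0.05, 50 higher (11.9%) and 41 lower (9.76%). All VitD3-DC libraries lay above all control-DC libraries for 37 miRNAs (8.81%) and below them for 36 (8.57%). The median log2 fold change (log2FC) over the 420 was -0.04. All tests here are edgeR's quasi-likelihood test with the replicate number as a block, two-sided and with Benjamini-Hochberg adjustment within the class. Values per library are normalized counts, meaning reads scaled to a common miRNA total and then adjusted by TMM. TMM follows the typical miRNA rather than the sum, so normalized counts of a library need not add up to that common total.

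**Figure D1:**
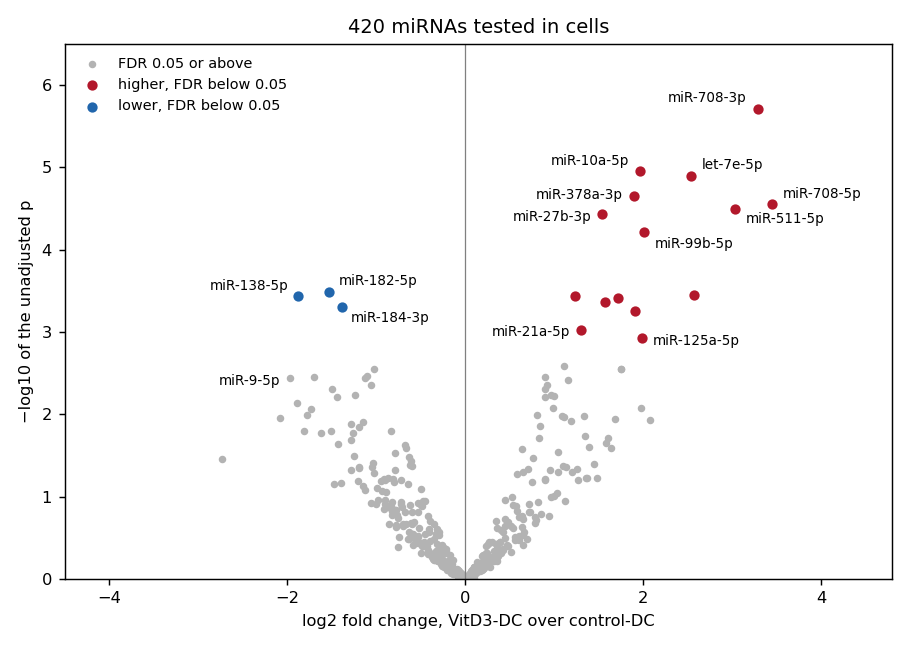
Each point is 1 of the 420 miRNAs tested in cells. The x axis is the log2FC of VitD3-DC over control-DC and the y axis is −log10 of the unadjusted p from edgeR's quasi-likelihood test. Of the 18 miRNAs with FDR below 0.05, 15 lie to the right of 0 and 3 to the left, with both arms of miR-708 the farthest to the right among them.

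The scale of these values depends on the normalization, and the balance of directions with it. Scaling by the miRNA total alone moved the median log2FC to -0.50 and gave 10 higher and 39 lower, and TMM over all RNA classes moved it to 0.52 and gave 43 higher and 2 lower. Of the 18, 13 were called by the miRNA total and 15 with TMM over all classes. In the main normalization the median lies near 0, and the log2FC given below are relative to that typical miRNA. None of the 18 changed direction under any of 21 alternative settings, and each was called in 12 to 20 of them.

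The largest fold changes among the 18 belonged to the 2 arms of miR-708, which is made from an intron of the teneurin gene Tenm4 (chromosome 7, 96249450 to 96249517, plus strand, GRCm38). miR-708-3p had 168, 42.6 and 246 normalized counts in VitD3-DC replicates 1 to 3, against 7.70, 11.1 and 17.7 in control-DC. All VitD3-DC libraries lay above all control-DC libraries, with VitD3-DC replicate 2 the nearest to them. The difference was 9.74-fold (log2FC 3.28, SE 0.44, FDR = 0.000828), from 271, 53 and 594 reads in VitD3-DC and 7, 13 and 27 in control-DC.

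The other arm, miR-708-5p, had 200, 44 and 181 reads in VitD3-DC and 6, 13 and 1 in control-DC. The groups did not overlap in normalized counts either, and again VitD3-DC replicate 2 was the lowest of its group (log2FC 3.45, SE 0.58, FDR = 0.00218). miR-28a-5p has the seed of miR-708-5p and is made from another chromosome, and it had a log2FC of 0.89 (FDR = 0.0697) with groups that overlapped. Both miR-151 arms, which are grouped with miR-28 and miR-708 in 1 family, had negative values. miR-151-5p had 4.97, 5.62 and 8.29 normalized counts in VitD3-DC and 11.0, 10.3 and 60.4 in control-DC, a log2FC of -1.70 that did not pass (FDR = 0.0567). Its groups did not overlap, but control-DC replicate 3 was far above the other control-DC libraries. Of the 6 tested members of this family, 2 were higher and 0 were lower, with a median log2FC of 0.58, which was -0.04 when scaled by the miRNA total.

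miR-10a-5p lies in the Hoxb gene cluster (chromosome 11, 96317186 to 96317208, plus strand). It had 1571, 3582 and 3690 normalized counts in VitD3-DC and 597, 677 and 901 in control-DC. The 2 groups were well apart, and replicate 1 had the lowest value in each. The fold change was 3.91 (log2FC 1.97, SE 0.31, FDR = 0.00179). Its passenger arm miR-10a-3p pointed the same way at a much lower depth, with 7, 23 and 8 reads in VitD3-DC and 1, 2 and 0 in control-DC (FDR = 0.101). miR-10b-5p, which differs from miR-10a-5p by a single base and comes from the Hoxd cluster, had 1 to 30 reads per library in VitD3-DC and 2 to 17 in control-DC, and its log2FC of -0.49 (FDR = 0.691) did not pass.

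The cluster of miR-99b, let-7e and miR-125a lies within Spaca6 (chromosome 17, 17830194 to 17830840, plus strand), and 3 of its 4 tested miRNAs were higher in VitD3-DC. The median log2FC of the 4 was 2.00, against -0.04 over all miRNAs. let-7 miRNAs are known to repress growth and pluripotency genes, miR-99 family members mTOR, and miR-125 family members several regulators of inflammation. let-7e-5p had 153, 354 and 218 reads in VitD3-DC, against 17, 46 and 24 in control-DC. Replicate 2 was the highest in both groups, and the groups did not overlap in reads or in normalized counts (log2FC 2.53, SE 0.40, FDR = 0.00179).

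miR-99b-5p had 555, 1238 and 1741 reads in VitD3-DC and 123, 166 and 339 in control-DC (log2FC 2.01, SE 0.37, FDR = 0.00322). miR-125a-5p was lower in abundance, with 32, 85 and 62 reads in VitD3-DC and 9, 11 and 9 in control-DC (log2FC 1.98, SE 0.50, FDR = 0.0276). Neither miRNA had overlapping groups, and VitD3-DC replicate 2 had the highest normalized count of each. miR-99b-3p, the passenger arm, had a log2FC of 1.36 and did not pass (FDR = 0.25).

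Of 9 tested members with this seed, let-7e-5p was the only one called, and the median log2FC was 0.14. let-7a-5p, 1 base away from let-7e-5p and far more abundant, had 13783, 18452 and 13307 normalized counts in VitD3-DC and 15788, 13386 and 12350 in control-DC, with groups that overlapped (log2FC 0.14, FDR = 0.863). The most abundant members were let-7i-5p, with 4.02%, 2.47% and 3.71% of miRNA reads in VitD3-DC and 4.95%, 4.11% and 6.14% in control-DC, and let-7f-5p, with 4.30%, 2.32% and 3.10% in VitD3-DC and 5.69%, 4.83% and 6.81% in control-DC. let-7f-5p had a log2FC of -0.30 (FDR = 0.604), which was 0.43 with TMM over all classes (FDR = 0.506) and -0.85 by the miRNA total, where it was called as lower (FDR = 0.0304). The sign of the family median also depends on the scale, at -0.45 by the miRNA total and 0.84 with TMM over all classes, while let-7e-5p was called on each. The paralogous clusters with miR-99a, let-7c, miR-125b and miR-100 had 0 of 5 tested members called and 1 at an unadjusted p under 0.05. Among them miR-99a-5p had 13.0, 112 and 60.5 normalized counts in VitD3-DC and 9.91, 18.0 and 38.7 in control-DC (log2FC 1.35, FDR = 0.128).

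**Figure D2:**
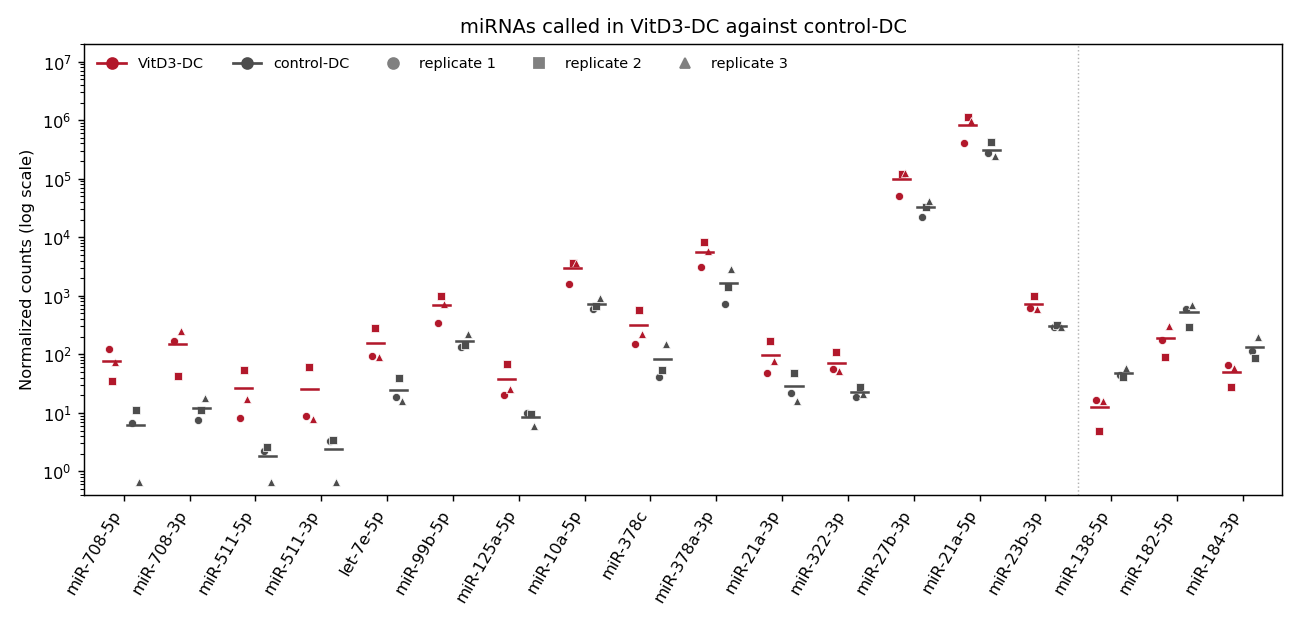
The y axis gives normalized counts (reads scaled to a common miRNA total, then by TMM) on a log scale for the 18 called miRNAs, ordered along the x axis, with the 3 VitD3-DC libraries left of the 3 control-DC libraries for each miRNA. Marker shapes are replicates. The libraries of miR-708-3p sit at 42.6 to 246 in VitD3-DC and 7.70 to 17.7 in control-DC, while those of miR-182-5p touch.

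The 2 clusters of miR-23, miR-27 and miR-24, miRNAs known for roles in lipid metabolism and differentiation, had positive values throughout. All 10 tested arms had a positive log2FC (median 1.02), 9 had an unadjusted p under 0.05, and 2 were called, both from the cluster on chromosome 13 (63300492 to 63301272, plus strand). Over all 420 tested miRNAs, 198 were positive, 11.9% were higher at that p and 3.57% were called higher. On the scale of the miRNA total 9 of the 10 were positive and the median was 0.43. miR-27b-3p had 51187, 119190 and 124593 normalized counts in VitD3-DC and 22346, 33306 and 42366 in control-DC. It took 6.27%, 7.26% and 7.76% of miRNA reads in VitD3-DC, against 2.53%, 3.56% and 5.48% in control-DC. The groups did not overlap on either measure (log2FC 1.54, SE 0.27, FDR = 0.00218).

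miR-23b-3p from the same transcript had 628, 984 and 595 normalized counts in VitD3-DC, against 297, 318 and 297 in control-DC, which were close to each other (log2FC 1.24, SE 0.27, FDR = 0.0125). By the miRNA total its log2FC was 0.63 and the call was lost (FDR = 0.333). miR-27b-5p, the passenger arm, was just outside the threshold with a log2FC of 1.11 (FDR = 0.0536), as was miR-24-3p, which is made from both clusters, with 0.90 (FDR = 0.0567). From the paralogous cluster on chromosome 8 (84208563 to 84208896, plus strand), miR-27a-3p had 1596, 3403 and 4026 normalized counts in VitD3-DC and 1301, 1473 and 1712 in control-DC. Its VitD3-DC replicate 1 fell within the range of control-DC (log2FC 0.92, FDR = 0.0616). Whether the 2 clusters differ in their response was not tested. miR-27a-3p and miR-27b-3p differ only at base 19, so the split of reads between them is uncertain.

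miR-378a is made from an intron of Ppargc1b, which codes for a coactivator of mitochondrial genes. miR-378a-3p had 3108, 8167 and 5850 normalized counts in VitD3-DC and 723, 1440 and 2884 in control-DC. The groups lay close at one end, with VitD3-DC replicate 1 just above control-DC replicate 3 (log2FC 1.89, SE 0.31, FDR = 0.00218). miR-378c, a related miRNA of chromosome 14, had 245, 719 and 545 reads in VitD3-DC and 38, 62 and 233 in control-DC, and the groups just overlapped in normalized counts (log2FC 1.91, SE 0.44, FDR = 0.0148). The sequences of miR-378 family members are near-identical, and reads may be shared between them. Of 4 tested members 2 were called and all 4 values were positive, with a median log2FC of 1.69, but 3 of 4 were positive when scaled by the miRNA total. Over all 420 tested miRNAs, 198 were positive and 3.57% were called higher in the main normalization.

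miR-511 lies in an intron of Mrc1 (chromosome 2), the gene of the mannose receptor CD206 of macrophages and dendritic cells. Both of its arms were higher in VitD3-DC at low depth. miR-511-5p had 13, 68 and 42 reads in VitD3-DC and 2, 3 and 1 in control-DC (log2FC 3.03, SE 0.52, FDR = 0.00218). miR-511-3p had 14, 75 and 19 reads in VitD3-DC and 3, 4 and 1 in control-DC (log2FC 2.57, SE 0.56, FDR = 0.0125). The groups of both arms did not overlap, and VitD3-DC replicate 2 had the most reads of each. Without that library the call of miR-511-5p remained (FDR = 0.0372) and that of miR-511-3p was lost (FDR = 0.141).

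miR-21a-5p, a miRNA of activated myeloid cells that is known to repress Pdcd4 and is made from an exon of Vmp1 (chromosome 11, 86584082 to 86584141 for both arms, minus strand), was the most abundant miRNA of all 6 libraries. It took 49.0%, 69.2% and 59.1% of miRNA reads in VitD3-DC, against 30.9%, 45.1% and 31.4% in control-DC. By share the lowest VitD3-DC library was above the highest control-DC library, whereas in normalized counts VitD3-DC replicate 1 fell below control-DC replicate 2. The log2FC was 1.30 (SE 0.32, FDR = 0.0236). The passenger arm miR-21a-3p had 77, 210 and 183 reads in VitD3-DC and 20, 57 and 24 in control-DC, and its normalized counts also overlapped in that 1 pair of libraries (log2FC 1.72, SE 0.38, FDR = 0.0125). Shares of miRNA reads add up to a fixed total, so values on the TMM scale are given beside them.

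miR-322-3p, of an X-linked cluster (53048008 to 53054327, minus strand), had 57.1, 108 and 51.8 normalized counts in VitD3-DC and 18.7, 27.4 and 21.0 in control-DC (log2FC 1.57, SE 0.35, FDR = 0.0128). The groups did not overlap. All 8 tested arms of this cluster (miR-322, miR-351, miR-503, miR-542 and miR-450b) had a positive log2FC, from 0.35 to 1.57, and 1 was called. Over all 420 tested miRNAs, 198 were positive and 3.57% were called higher. On the scale of the miRNA total 5 of the 8 were positive and the call of miR-322-3p was lost (log2FC 0.95, FDR = 0.200). The other calls lost on that scale were those of miR-21a-3p (FDR = 0.128), miR-378c (FDR = 0.102) and miR-125a-5p (FDR = 0.0821), beside miR-23b-3p. The X-linked cluster of miR-221 and miR-222 had 3 of 4 members at an unadjusted p under 0.05, all higher, and 0 called. At that p 11.9% of all tested miRNAs were higher. The median log2FC of the cluster was 0.88, or 0.26 by the miRNA total. The highest-ranking member miR-222-3p had 2472, 5158 and 2758 normalized counts in VitD3-DC and 2083, 1643 and 1455 in control-DC (log2FC 0.97, FDR = 0.0697).

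**Figure D3:**
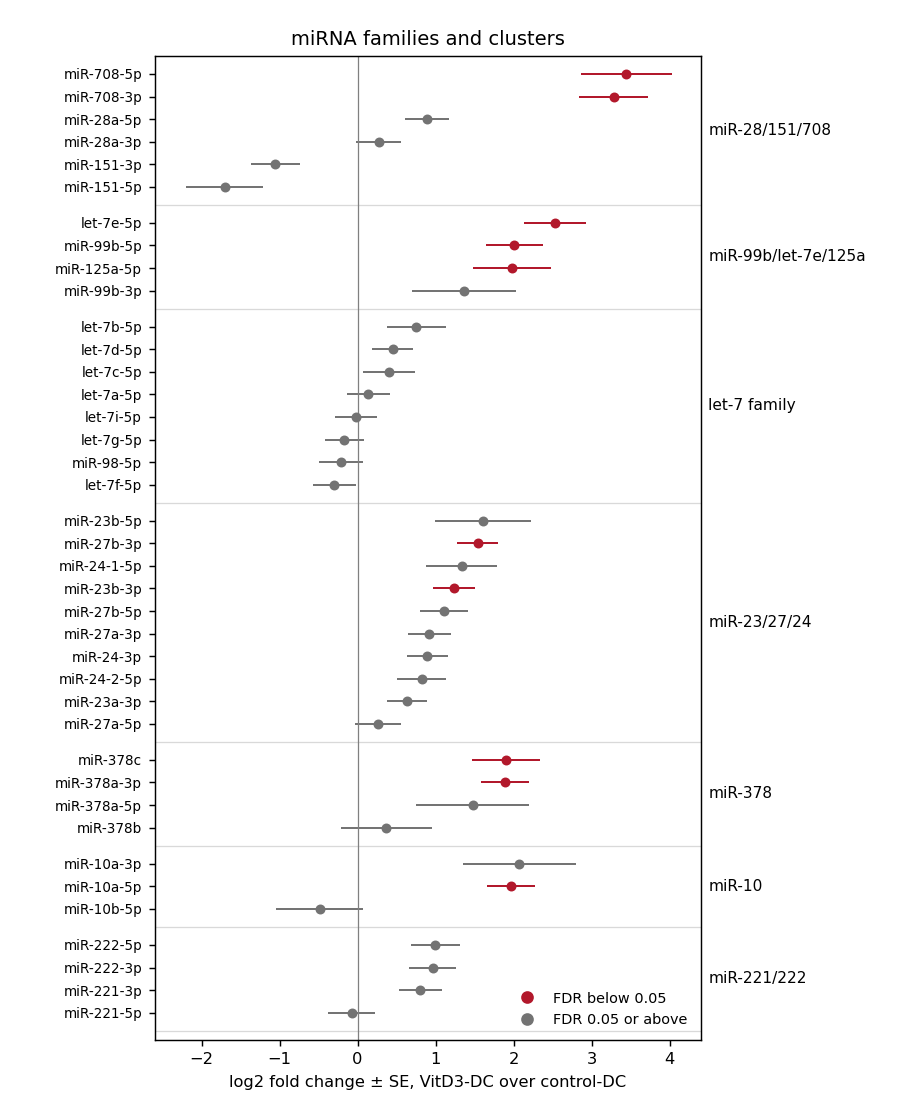
Points give the log2FC of VitD3-DC over control-DC ± SE on the x axis for tested members of 7 miRNA families or clusters, colored where FDR was below 0.05 and gray otherwise, with let-7e-5p drawn in its cluster. All 10 arms of the miR-23/27/24 clusters lie right of 0 with 2 called. Over all 420 tested miRNAs, 198 had a positive log2FC.

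The 3 miRNAs that were lower in VitD3-DC come from separate loci and have separate seeds. miR-182-5p, of the miR-183/96/182 cluster (chromosome 6, 30165962 to 30169732, minus strand), had 178, 90.8 and 299 normalized counts in VitD3-DC and 589, 299 and 695 in control-DC. Each VitD3-DC library was below its control-DC partner of the same replicate number, though the highest VitD3-DC library equalled the lowest control-DC library at this rounding (log2FC -1.53, SE 0.33, FDR = 0.0125). Its cluster partner miR-183-5p had a log2FC of -1.10 and fell just outside (FDR = 0.0567). The other tested member of the cluster, miR-96-5p, had a log2FC of 0.07. miR-138-5p, abundant in brain, had 27, 6 and 38 reads in VitD3-DC and 40, 47 and 88 in control-DC (log2FC -1.88, SE 0.41, FDR = 0.0125). miR-184-3p, known from the eye, had 66.5, 28.1 and 57.6 normalized counts in VitD3-DC and 114, 87.4 and 198 in control-DC (log2FC -1.39, SE 0.31, FDR = 0.0141). For both the groups did not overlap, and VitD3-DC replicate 2 was the lowest library. All 3 calls were lost with TMM over all classes (FDR = 0.354, 0.157 and 0.430) and without VitD3-DC replicate 2 (FDR = 0.0634 for each).

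miR-9-5p, a miRNA known from neural development and from Toll-like receptor responses of myeloid cells, had one of the widest differences outside the threshold. It took 4.26%, 0.18% and 1.59% of miRNA reads in VitD3-DC, against 7.58%, 8.84% and 8.08% in control-DC. The control-DC libraries were alike, and the VitD3-DC libraries were all lower but ranged widely, with replicate 2 far below the others. The log2FC was -1.97 (SE 0.57, FDR = 0.0567), and it was called in 9 of 21 alternative settings, among them the one without VitD3-DC replicate 2 (FDR = 0.0367). The other arm miR-9-3p had 93.8, 4.82 and 58.8 normalized counts in VitD3-DC and 147, 194 and 108 in control-DC (log2FC -1.62, FDR = 0.121). miR-7a-5p followed with 14962, 7097 and 14608 normalized counts in VitD3-DC and 31062, 17832 and 23314 in control-DC, groups that did not overlap (log2FC -1.02, FDR = 0.0536).

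Among miRNAs of dendritic cell activation, miR-155-5p had 843, 118 and 843 normalized counts in VitD3-DC and 970, 439 and 1743 in control-DC. It was lower in all 3 pairs, but the groups overlapped and the difference did not pass (log2FC -0.89, FDR = 0.306). miR-146a-5p, a feedback inhibitor of Toll-like receptor signaling, had a log2FC of -0.65 (FDR = 0.262), and was called as lower by the miRNA total (log2FC -1.29, FDR = 0.0320). The abundant miR-146b-5p took 9.31%, 5.72% and 11.5% of miRNA reads in VitD3-DC and 17.2%, 13.1% and 13.7% in control-DC, yet its log2FC on the TMM scale was -0.23 (FDR = 0.773), and it was 0.56 with TMM over all classes (FDR = 0.354). By the miRNA total it was -0.77 and called as lower (FDR = 0.0318). The hematopoietic miR-223-3p (log2FC 0.10, FDR = 0.928) and miR-142a-5p (-0.03, FDR = 0.968) had groups that overlapped. The miR-17-92 cluster and its paralogs, known for promoting proliferation, had 0 of 16 tested members called, with 12 negative values and a median log2FC of -0.31 that was 0.30 with TMM over all classes. One exception within the list was miR-363-3p, which had 5, 6 and 8 reads in VitD3-DC and 0 in each control-DC library (FDR = 0.0878), so that no fold is given.

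Cellular RNA of treated and control cells was also compared by the study, by sequencing and by quantitative PCR. By PCR it reports that LPS or VitD3 changed miR-155, miR-9 and miR-10a by closely similar folds in cells and EV. For miR-146a, Rny1 and Rny3 it reports no significant change in cells against control. The study drew up lists from the EV of these same cultures, which are not independent of these samples. They keep only top-ranked miRNAs with a role related to dendritic cells known from earlier reports. The lists set VitD3-EV against LPS-EV, whereas the values here set VitD3-DC against control-DC, so the comparisons are unlike. Of the 11 miRNAs on the VitD3-EV side, 4 were higher in VitD3-DC (miR-708-3p, miR-708-5p, miR-10a-5p and miR-378a-3p) and 0 were lower. In all 8 values were positive and 3 negative (median log2FC 1.11), and miR-203-3p had a log2FC of -1.81 (unadjusted p = 0.0161, FDR = 0.119). By the miRNA total 6 were positive and 5 negative, 4 were called higher and 1 lower, and the median was 0.54. Of the 4 on the LPS-EV side, 0 were called and all 4 values were negative (median log2FC -0.96). By the miRNA total 3 of these 4 were called lower (median -1.49), and with TMM over all classes 1 was (median -0.26). For comparison, 4.29% of all tested miRNAs were called.

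The same EV libraries give values for these miRNAs outside the cells. Of the 18 miRNAs called in cells, 16 had enough reads to be tested in EV and all 16 had the same sign there. How often signs agree over all miRNAs was not counted, so these 16 have no background to be set against. Over all miRNAs, 16 of 249 (6.43%) were called in EV, 14 higher (5.62%) and 2 lower (0.803%) in VitD3-EV than in control-EV. The 5 called in both compartments were miR-708-3p (log2FC 3.28 in cells and 2.30 in EV), miR-10a-5p (1.97 and 1.59), miR-21a-5p (1.30 and 0.98), miR-27b-3p (1.54 and 0.96) and miR-378a-3p (1.89 and 0.96). The depth in EV was low for some, as miR-708-3p had 24, 2 and 13 reads in VitD3-EV and 0, 2 and 8 in control-EV. miR-9-5p, just outside the threshold in cells, was called in EV with a log2FC of -1.93 (FDR = 1.63e-11).

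Whether the difference itself differs between EV and cells was tested with an interaction term over 395 miRNAs, of which 2 (0.506%) had FDR below 0.05 and 31 (7.85%) an unadjusted p under 0.05. Of the 18 miRNAs, 0 passed that FDR and 3 had an unadjusted p under 0.05. Among these 3, let-7e-5p had a log2FC of 2.53 in cells and 0.66 in EV (interaction -1.62, FDR = 0.51), and miR-99b-5p had 2.01 in cells and 0.44 in EV (interaction -1.38, FDR = 0.234). The third was miR-511-5p, which had 0 reads in every VitD3-EV library and 2, 0 and 1 in control-EV.

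**Figure D4:**
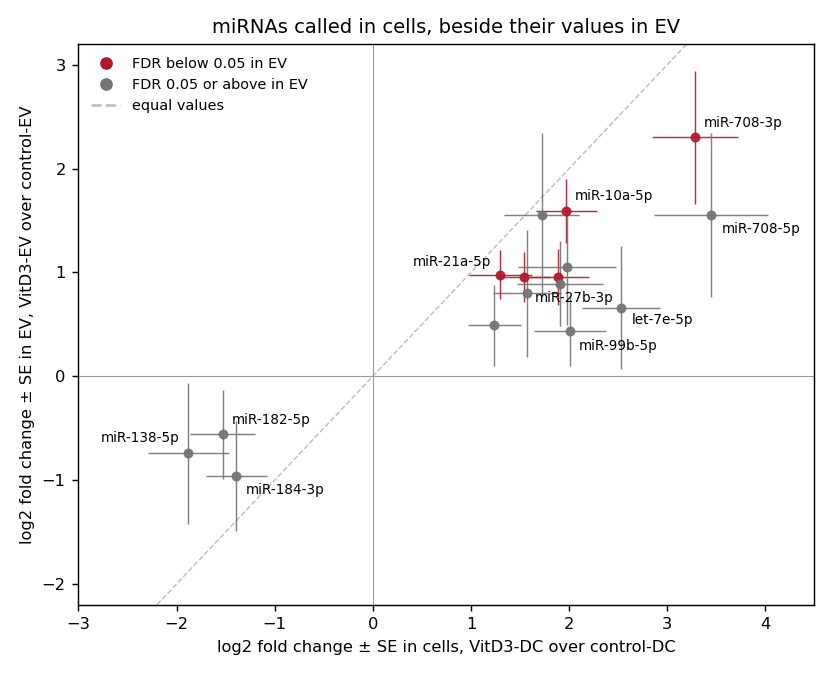
Each point is 1 of the 16 miRNAs called in cells and tested in EV. The x axis is the log2FC of VitD3-DC over control-DC and the y axis that of VitD3-EV over control-EV, both ± SE, and the dashed line marks equal values. All 16 have the same sign on both axes, and let-7e-5p lies at 2.53 in cells and 0.66 in EV.

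LPS-DC were compared with the same control-DC libraries, so the 2 comparisons share their controls. Values of the 18 miRNAs are set side by side here. In LPS-DC the let-7e cluster had a log2FC of 1.87 for let-7e-5p (FDR = 0.0278), 1.48 for miR-99b-5p and 2.01 for miR-125a-5p (FDR = 0.0503 for each), against 2.53, 2.01 and 1.98 in VitD3-DC. miR-708-3p had a log2FC of -0.26, miR-10a-5p -0.09, miR-27b-3p -0.02 and miR-378a-3p -0.23 in LPS-DC, with FDR of 0.807 or more. The 5p arm miR-708-5p had 0.84 (FDR = 0.554), both miR-511 arms had positive values (0.47 and 0.67), and miR-378c had 0.64 (FDR = 0.554). Of the 3 miRNAs that were lower in VitD3-DC, miR-138-5p had -0.99, miR-182-5p -0.41 and miR-184-3p 0.68 in LPS-DC (FDR = 0.277, 0.627 and 0.313). The remaining 4 lay between -0.21 and 0.39. Over all 420 miRNAs 6 (1.43%) were called in LPS-DC, and let-7e-5p was the only one of the 18 among them.

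Within the snoRNAs, which guide methylation (C/D box) and pseudouridylation (H/ACA box) of ribosomal RNA, 0 of 331 were called (0%) in VitD3-DC against control-DC by edgeR's quasi-likelihood test. At an unadjusted p under 0.05 there were 37 (11.2%), 12 higher (3.63%) and 25 lower (7.55%), and both edgeR's likelihood ratio test and DESeq2 called 0. The lowest FDR was 0.296. It was reached by Snora62, an H/ACA box snoRNA in an intron of the ribosomal protein gene Rpsa (chromosome 9, 120130415 to 120130563), with 158, 298 and 352 reads in VitD3-DC and 420, 843 and 2217 in control-DC (log2FC -1.41, SE 0.38). Control-DC replicate 3 was far above the other libraries, and the groups overlapped in normalized counts.

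Snord88a, a C/D box snoRNA within 2410002F23Rik on chromosome 7, shared the lowest FDR. It had 9074, 5091 and 3713 normalized counts in VitD3-DC and 11522, 14168 and 8208 in control-DC, where VitD3-DC replicate 1 lay within the control-DC range (log2FC -0.96, SE 0.27). Its neighbours Gm23991 (log2FC -0.89) and Snord88c (-0.74) had negative values as well, at FDR = 0.318 and FDR = 0.381. Of 37 named H/ACA box snoRNAs, 6 had an unadjusted p under 0.05, all lower, with a median log2FC of -0.28. Of 76 named C/D box snoRNAs, 3 were higher and 2 lower by that threshold, and their median was 0.15, or -0.17 with TMM over all classes. The 2 most abundant snoRNAs differed in share by less than 1 SD of control-DC, with Gm23246 at 26.6% ± 3.25 of snoRNA reads in VitD3-DC and 24.2% ± 5.81 in control-DC, and Snord2 at 23.3% ± 2.19 and 24.1% ± 2.42 (SD, n = 3 each). The next by share were Gm26224, with 4.58% ± 0.718 in VitD3-DC and 4.88% ± 1.11 in control-DC, Gm23130, with 3.57% ± 0.288 and 3.08% ± 0.124, and Snord95, with 3.46% ± 0.254 and 4.27% ± 1.25.

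The snoRNA result depended on replicate 1. Without replicate 1 in both groups, 17 snoRNAs were called, 8 higher and 9 lower, although that fit has fewer libraries. Leaving out VitD3-DC replicate 1 alone gave 2 calls and control-DC replicate 1 alone gave 1.

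Of 373 snRNA genes, the RNAs of the spliceosome and their many genomic copies, 0 were called (0%) and 11 (2.95%) had an unadjusted p under 0.05, 6 higher (1.61%) and 5 lower (1.34%). The likelihood ratio test and DESeq2 also called 0. The lowest FDR, 0.241, belonged to Gm26361, with 41, 9 and 3 reads in VitD3-DC and 7, 6 and 2 in control-DC (log2FC 2.02, SE 0.56). The genes with the largest shares were Gm23444, with 19.5% ± 3.37 of snRNA reads in VitD3-DC and 22.5% ± 6.82 in control-DC, Gm23971, with 14.0% ± 2.53 and 18.4% ± 7.02, and Gm24871, with 13.4% ± 2.10 and 11.8% ± 5.15 (SD, n = 3 each). Gm25099, Gm23143 and Gm25939 followed, each below 10% on average in both groups. Since copies share sequence, reads were also summed by family. A read placed on several copies may count more than once in such sums. U2 took 45.1% ± 6.64 of snRNA reads in VitD3-DC and 53.7% ± 16.0 in control-DC (exact permutation test, p = 0.5, n = 3 each). U6 took 8.42% ± 0.356 in VitD3-DC and 5.81% ± 2.64 in control-DC (exact permutation test, p = 0.2, n = 3 each). For both families the difference was within the spread of control-DC, and 3 libraries against 3 cannot give a p below 0.1. By replicate, the U6 share was 8.78%, 8.06% and 8.42% in VitD3-DC against 8.12%, 6.37% and 2.94% in control-DC, higher in all 3 pairs and by most in replicate 3.

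Of 39 miscRNAs, 0 were called (0%) and 7 (17.9%) had an unadjusted p under 0.05, 5 higher (12.8%) and 2 lower (5.13%). The groups did not overlap for 8, with 6 higher (15.4%) and 2 lower (5.13%). DESeq2 called 0 and the likelihood ratio test 4. Y-RNAs are small polymerase III transcripts that bind the Ro60 protein. By Northern blot the study found that sequencing caught full-length Y1-RNA poorly. Y-RNA reads may therefore stand mainly for fragments and need not follow the full-length RNA. Rny3 had 1392, 2146 and 724 reads in VitD3-DC and 1123, 492 and 380 in control-DC, which is 5.41%, 13.9% and 2.37% of miscRNA reads in VitD3-DC and 3.44%, 2.25% and 1.89% in control-DC. It was higher in all 3 pairs, by most in replicate 2, but VitD3-DC replicate 3 lay within the control-DC range (log2FC 1.18, SE 0.44, FDR = 0.132). Rny3 was called in 8 of 19 alternative settings, among them scaling by the miscRNA total (FDR = 1.11e-05), TMM over all classes (FDR = 0.00114) and the likelihood ratio test (FDR = 0.0284), and had FDR = 0.765 without VitD3-DC replicate 2. Rny1 took 5.85%, 4.11% and 2.62% in VitD3-DC and 2.31%, 2.16% and 2.12% in control-DC, without overlap (log2FC 0.74, SE 0.41, FDR = 0.292).

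Vaultrc5, the RNA of the vault particle, had a log2FC of -0.47 (FDR = 0.493), and the 4 tested 7SL and 7SK genes had values from -0.25 to -0.03 with 0 called. The 7SL genes Rn7s1 and Rn7s2 were the most abundant miscRNAs, with 28.6% ± 2.85 and 28.2% ± 2.77 of miscRNA reads in VitD3-DC and 30.6% ± 0.340 and 30.4% ± 0.331 in control-DC, and Rn7s6 had 6.79% ± 2.94 in VitD3-DC and 6.16% ± 1.53 in control-DC (SD, n = 3 each). Gm24105 took 13.8%, 15.1% and 14.7% in VitD3-DC, against 17.3%, 18.9% and 18.5% in control-DC, without overlap, but did not pass (log2FC -0.47, FDR = 0.551). The miscRNA with the lowest FDR was Gm24372, with 162, 122 and 77 reads in VitD3-DC and 54, 52 and 43 in control-DC (log2FC 1.15, SE 0.36, FDR = 0.0655). Its groups did not overlap. Without replicate 3 in both groups, 3 miscRNAs were called, and without control-DC replicate 3 alone 2.

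Of 335 tRNA genes, 0 were called (0%) and 34 (10.1%) had an unadjusted p under 0.05, 21 higher (6.27%) and 13 lower (3.88%). DESeq2 called 0 and the likelihood ratio test 1. Leaving out replicate 3 in both groups gave 7 calls, and leaving out control-DC replicate 3 alone gave 5. Gene copies of a tRNA are near-identical and reads cannot be placed among them. Counts were therefore also summed by isoacceptor, the tRNAs that share an anticodon. Copies can have near-equal counts. The most abundant GluCTC copies, for example, had 19.01%, 19.01% and 18.25% of tRNA reads in VitD3-DC replicate 1. A read may therefore count on several copies, and the sums and shares below may weight an isoacceptor by its copy number. The study also reports a mismatch between reads and Northern blot for tRNAs, which it ascribes to poor sequencing of full-length tRNAs.

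Summed by anticodon, 5 of 49 isoacceptors (10.2%) were lower in VitD3-DC and 0 were higher. They were AsnGTT (log2FC -0.95), PheGAA (-0.73), ArgACG (-0.92), IleTAT (-0.89) and LeuCAA (-1.06), each at FDR = 0.0434. LeuCAA had 233, 114 and 185 normalized counts in VitD3-DC and 510, 282 and 301 in control-DC, without overlap. Its shares of tRNA reads did overlap, at 0.0271%, 0.0127% and 0.0184% in VitD3-DC and 0.0323%, 0.0205% and 0.0289% in control-DC. VitD3-DC lay wholly below control-DC for 14 isoacceptors (28.6%) and above for 1 (2.04%), and 13 (26.5%) had an unadjusted p under 0.05, all lower. These calls rest on the settings: 0 isoacceptors were called without the replicate block, with scaling by the tRNA total, with RNAs of at least 1 read, or without replicate 1, 2 or 3. PheGAA turned to 0.08 without replicate 2. Scaling by the tRNA total also moved the median log2FC of all isoacceptors to 0.18, against -0.24 in the main normalization. On that scale 2 isoacceptors had an unadjusted p under 0.05, both higher, so the one-sidedness above depends on the normalization. The most abundant isoacceptor, GluCTC, took 58.8% ± 1.20 of tRNA reads in VitD3-DC and 61.8% ± 2.23 in control-DC (SD, n = 3 each). GluTTC took 11.3%, 10.7% and 14.4% in VitD3-DC and 6.05%, 6.88% and 8.92% in control-DC, shares that did not overlap, but its log2FC was 0.22 (FDR = 0.784). GlyGCC took 14.2% ± 2.47 in VitD3-DC and 16.0% ± 0.303 in control-DC, LysCTT 10.8% ± 1.03 and 11.1% ± 2.51, and GlnCTG 1.61% ± 0.377 and 1.67% ± 0.933 (SD, n = 3 each).

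As a class, miRNA took a larger share of counted reads in VitD3-DC. The share was 9.77%, 17.4% and 16.7% in VitD3-DC, against 4.15%, 8.36% and 8.91% in control-DC. Each VitD3-DC library was above its partner and above all control-DC libraries, and replicate 1 was the lowest of each group. The means were 14.6% ± 4.20 and 7.14% ± 2.61 in control-DC (exact permutation test, two-sided, p = 0.1, the smallest that 3 against 3 allows; adjusted p = 0.3 over the 6 classes). The LPS-DC libraries had 11.2%, 8.80% and 6.46%.

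The snRNA share was 1.36% ± 0.248 in VitD3-DC and 2.74% ± 1.05 in control-DC (exact permutation test, p = 0.1, adjusted p = 0.3, SD, n = 3 each), and it was lower in all 3 pairs. The snoRNA share was 26.8% ± 11.4 in VitD3-DC and 34.3% ± 12.1 in control-DC, lower in all 3 pairs but with wide spread between days (exact permutation test, p = 0.5, n = 3 each). The shares of tRNA, miscRNA and rRNA had p of 0.8 or more by the exact permutation test. These are shares of sequenced reads, after rRNA had been depleted and gel fractions of different lengths had been pooled in a set ratio, so they do not give the amount of a class per cell. They sum all deposited rows, without collapsing repeated miRNA names, so a read placed on several rows may count more than once. How far this moved the shares was not tested.

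**Figure D5:**
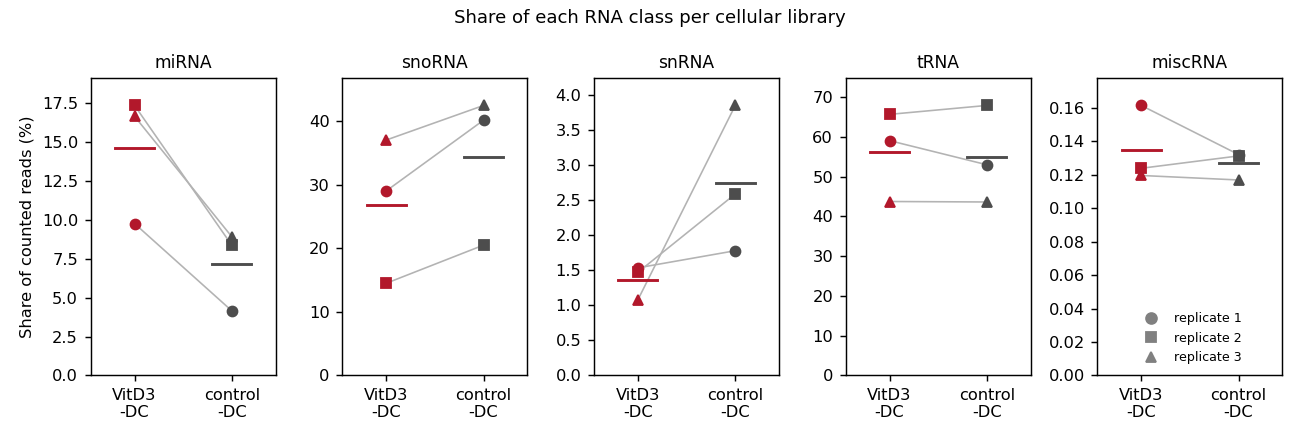
Each panel gives, on the y axis, the share of counted reads (%) of 1 RNA class, with VitD3-DC left and control-DC right. Markers are the 3 replicates, gray lines join libraries of the same replicate number and colored bars are group means. The miRNA share is 9.77% to 17.4% in VitD3-DC and 4.15% to 8.91% in control-DC, and the snRNA share is lower in VitD3-DC in all 3 pairs.

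The number of called miRNAs depended on single libraries and on the test. Leaving out VitD3-DC replicate 2, the library with the differing run label, left 9 called, of which 8 were among the 18: both arms of miR-708, miR-10a-5p, let-7e-5p, miR-378a-3p, miR-511-5p, miR-27b-3p and miR-99b-5p. Leaving out replicate 1 in both groups left 7, replicate 2 gave 20 with 12 of the 18 among them, and replicate 3 left 1 (miR-378a-3p). Without the replicate block 5 were called, and with sequencing run in its place 4. The likelihood ratio test called 48 and DESeq2 40, and both called all 18.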

How the data were processed

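Small RNA of 3 VitD3-DC and 3 control-DC cultures was analysed. By the study's methods, small RNA was treated with DNase, depleted of rRNA and ligated to adapters, and size fractions of the libraries were pooled in a fixed ratio. By the submitters' processing notes and the methods, adapters were cut from the paired-end reads (cutadapt 1.8), gsnap placed the reads on mm10, and HTSeq 0.6.1p1 counted them by strand on features of Ensembl, of miRBase and of a UCSC repeat track. Values in the table are raw counts as deposited by the authors, all whole numbers, and 0 rows name no gene. PCR reads carried no molecular identifiers.

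Of 78 miRNA names in several rows, the row with the most reads was kept. Of the 39 such names with at least 10 reads, 17 had rows within 1% of each other. Each class was tested with edgeR 4.0.16 in R 4.3.3 (quasi-likelihood, two-sided, TMM within the class, prior count 2) over the 9 cellular libraries, LPS-DC included, with Benjamini-Hochberg adjustment. RNAs needed at least 10 reads over the 9. Calls had FDR below 0.05. SE is the absolute log2FC over the square root of F. Replicate number, taken as the experiment day of the study, was a block. Residuals of same-numbered VitD3-DC and control-DC libraries correlated with r of 0.19 to 0.342 over 1498 RNAs. All 9 same-numbered pairs were over 0.1, and pairs of different number gave -0.359 to 0.127. Residuals were taken from group means, so positive same-numbered values push those of different number down. Shares of the classes were set against each other by exact permutation test. They were computed over all rows, repeated miRNA names included.

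Named were called RNAs, the 5 most abundant of each class (tRNA by isoacceptor), listed families, their other arms, cluster and seed relatives. Members and lists were chosen with earlier results of these data known. Host genes are those of GENCODE on GRCm38. The 3 rRNA rows entered class shares only, and 76 rows of other types were not tested. Alternatives were DESeq2 1.42.0, edgeR's likelihood ratio test, other scalings, filters, blocks and row choices, and leaving out libraries. Scripts were tested on simulated data.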

Additional observations from a re-analysis of the deposited data

Results flagged for a closer look

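For 2 miRNAs the difference between VitD3 and control differed between EV and cells, by edgeR's quasi-likelihood test of the interaction (2 of 395 with FDR below 0.05). miR-203-3p, a miRNA of skin epithelium, had an interaction of 3.50 (log2 scale, SE 0.76, FDR = 0.00159), with a log2FC of 1.96 in EV and -1.81 in cells. Its reads were 75, 9 and 8 in VitD3-EV against 11, 4 and 20 in control-EV, and 14, 10 and 25 in VitD3-DC against 4, 29 and 150 in control-DC, so single libraries (VitD3-EV replicate 1 and control-DC replicate 3) held most reads. miR-1a-3p, a muscle miRNA, had an interaction of 2.05 (FDR = 0.0289). It had 1, 4 and 8686 reads in VitD3-EV against 9, 5 and 22555 in control-EV, and 0, 2 and 14952 in VitD3-DC against 1, 258 and 10043 in control-DC, so nearly all reads came from replicate 3. Neither was called without the replicate block, with filterByExpr or without any 1 of the 3 replicates.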

How the results depend on the processing

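None of the 18 called miRNAs changed direction in any of 21 alternatives, and 6 were called in at least 19. The replicate block mattered: with no replicate block 5 of 420 miRNAs, 0 snoRNAs, 0 snRNAs, 0 miscRNAs, 0 tRNA genes and 0 isoacceptors (against 5) were called, and 0 miRNA interactions (against 2). Sequencing run in place of the block gave 4 miRNAs, 1 snRNA and 1 miscRNA. Against 18 miRNAs, the likelihood ratio test called 48, DESeq2 40, scaling by the class total 49, TMM over all classes 45, at least 1 read 47, and the 6 VitD3-DC and control-DC libraries alone 34. Leave-outs gave 1 to 20 miRNAs by replicate and 9 to 25 by library (9 without VitD3-DC replicate 2). Against 0 miscRNAs, the likelihood ratio test called 4, DESeq2 size factors 2, the class total 1, TMM over all classes 3, at least 1 read 1, the 6 libraries alone 1, and leave-outs 0 to 3. Against 0 snoRNAs, TMM over all classes and at least 1 read called 2 each, and leave-outs 0 to 17. Leave-outs gave 0 to 2 snRNAs and 0 to 7 tRNA genes, and the likelihood ratio test 1 tRNA gene. Isoacceptors had 0 calls with the class total, with at least 1 read and in each leave-out, whose log2FC spanned -0.47 to 0.08 for PheGAA and -0.47 to 0.13 for GluCTC. miRNA interactions had 0 calls with filterByExpr and in each leave-out, and snoRNA interactions 0 to 2. miR-146b-5p (-0.23) was 0.56 and let-7f-5p (-0.30) 0.43 with TMM over all classes, and leave-outs of miR-146b-5p spanned -0.58 to 0.19 by replicate and -0.63 to 0.11 by library. Ratios of class shares in leave-outs spanned 0.981 to 1.13 for miscRNA, 0.981 to 1.06 for tRNA and 0.959 to 1.51 for rRNA. The cause of these changes was not tested, beyond fewer libraries in leave-outs. RNAs with few reads, such as miR-511 and miR-125a-5p, are limited by depth.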
